A study of Mus musculus with 4 samples.

Results

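The Toll-like receptor and adaptor genes were taken as 10 named genes, Tlr1, Tlr2, Tlr3, Tlr4, Tlr6, Tlr7, Tlr9, Myd88, Ticam1 and Unc93b1, found by symbol in the annotation of the array, from a list made with earlier results of these data known. All 10 were found, each on 1 probe that carries no other gene's symbol, among 22180 genes measured. RNA came from B16-OVA cells, mouse melanoma cells engineered to make ovalbumin and grown in medium with serum. Per the labels, 2 Affymetrix arrays held mock transfected cells and 2 held cells transfected for 6 hours with AT90ES, linked by the sample titles and the study's design to a double-stranded DNA of 90 bases per strand, with Lipofectamine 2000, a lipid reagent for bringing nucleic acid into cells. The same treatment text stands under all 4 arrays, so whether the mock cells received the lipid, another DNA or neither is not stated there, and a response to DNA and a response to transfection cannot be told apart. All cells are of 1 line, and nothing in the labels says that the 2 arrays of a group were separate cultures, so the p-values measure the spread between these 4 arrays alone, and that spread may be technical.

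Toll-like receptors recognise molecules of microbes and release signals for inflammation and interferon. Tlr1, Tlr2, Tlr4 and Tlr6 sit at the cell surface and bind bacterial lipids and lipoproteins, while Tlr3 (double-stranded RNA), Tlr7 (single-stranded RNA) and Tlr9 (DNA with unmethylated CpG) sit in endosomes, where the chaperone Unc93b1 brings them. Myd88 is the adaptor of all these receptors except Tlr3, which signals through the adaptor Ticam1 (TRIF), as Tlr4 does in part. Most of these receptors are best known from macrophages, dendritic cells and B cells. DNA in the cytosol is read by another pathway, that of cGAS and STING, and several genes of the Toll-like receptor system are known interferon targets.

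Upstream sequence of the members was described first, from RefSeq (assembly GRCm38.p6), as the 250 bases before an annotated start. Of the 10 members, 7 had such a window, 9 windows in all. GAAANNGAA, the core of interferon response elements, was searched on both strands and lay in 7.13% of all 32851 windows and in 2 of the 9 member windows, 1 of Myd88 and 1 of Tlr6. The looser AANNGAAA, an interferon regulatory factor core added after the sequences were seen and able to overlap the first, lay in 21.3% of all windows and in 5 of the 9. The usual NF-kappaB consensus lay in 3.9% of all windows and in 2 of the 9, those of Tlr2 and Tlr3. Myd88 and Tlr3 are shown because they had the highest measured differences between the groups, and Tlr6 because its window held the interferon response core and its level lay at background. Capitals mark every match of the 3 motifs, and each window is written 5′ to 3′ on the strand of the gene.
Myd88, chr9:119340019-119340268, minus strand: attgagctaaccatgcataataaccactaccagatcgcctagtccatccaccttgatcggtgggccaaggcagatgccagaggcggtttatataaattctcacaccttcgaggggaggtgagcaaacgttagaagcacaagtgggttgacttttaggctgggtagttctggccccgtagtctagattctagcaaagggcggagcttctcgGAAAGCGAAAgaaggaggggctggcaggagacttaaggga
Tlr3, chr8:45410381-45410630, minus strand: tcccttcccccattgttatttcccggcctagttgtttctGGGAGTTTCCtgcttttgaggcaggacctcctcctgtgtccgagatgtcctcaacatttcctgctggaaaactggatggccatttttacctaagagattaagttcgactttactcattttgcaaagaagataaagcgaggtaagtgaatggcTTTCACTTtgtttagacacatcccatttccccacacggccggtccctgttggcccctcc
Tlr6, chr5:64959167-64959416, minus strand: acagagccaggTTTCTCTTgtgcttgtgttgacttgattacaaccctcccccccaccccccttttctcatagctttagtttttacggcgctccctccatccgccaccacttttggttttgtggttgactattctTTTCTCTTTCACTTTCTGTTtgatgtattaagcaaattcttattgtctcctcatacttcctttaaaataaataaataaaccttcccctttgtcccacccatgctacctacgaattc
In the Myd88 window GAAANNGAA spans bases -40 to -32 from the start. In the Tlr3 window AANNGAAA lies on the opposite strand at bases -59 to -52, and the NF-kappaB consensus at bases -211 to -202. In the Tlr6 window 2 overlapping matches of GAAANNGAA lie on the opposite strand at bases -115 to -101, and the other window of Tlr6 held no match of the 3 motifs. A match describes letters and is not a measured binding site.

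Levels in mock cells were set beside the background of the same array, taken as the 95th percentile over 1105 genes of olfactory receptors, which melanoma cells are not known to use. On the deposited log2 scale it was 5.07 and 4.93 in mock and 4.85 and 4.92 in AT90ES cells. On both mock arrays 6 of the 10 members lay above it, namely Tlr3, Tlr4, Tlr9, Myd88, Ticam1 and Unc93b1. The same 6 lay above it on all 4 arrays, against 52.8% of all genes. Tlr2, Tlr6 and Tlr7 lay below it on all 4 arrays, and Tlr1 lay above it on 2 arrays, 1 of each group. Tlr9 was the nearest to background among the 6, by 0.23 and 0.49 on the mock arrays, and by 0.04 on AT90ES replicate 2. A level under this background does not show that a gene is silent, and a difference that starts there could go unseen. The members are not ranked by level against each other, since probes differ in brightness.

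**Figure D1:**
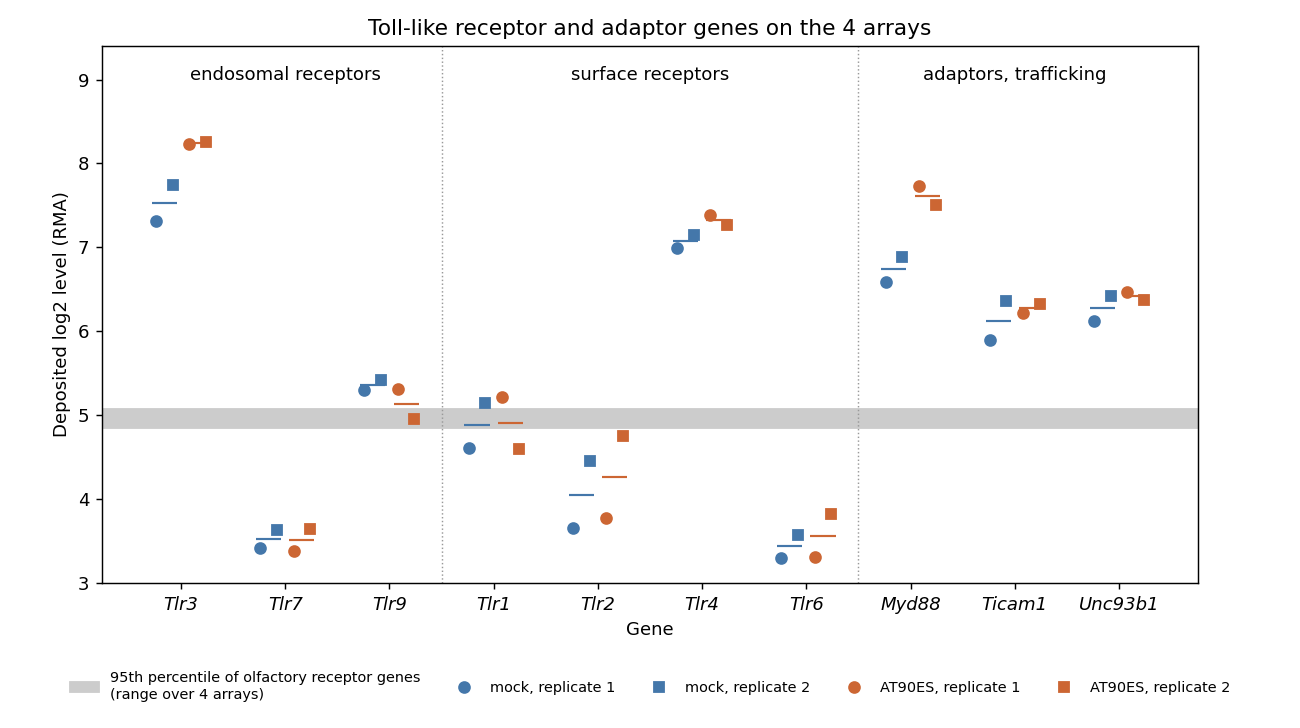
Deposited log2 levels (RMA) of the 10 genes on each array, with circles for replicate 1, squares for replicate 2, short lines for group means, and a grey band for the range over the 4 arrays of the 95th percentile of olfactory receptor genes. AT90ES points lie above both mock points for Tlr3, Tlr4 and Myd88, and Tlr2, Tlr6 and Tlr7 lie under the band on all arrays.

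Of the 10 members, 0 were called higher and 0 lower in AT90ES cells by limma at a Benjamini-Hochberg adjusted p under 0.05, where 0.415% of all genes were called higher and 0% lower. The highest measured differences were those of Myd88 and Tlr3, and the other 8 lay between -0.23 and 0.25 on the log2 scale. At an unadjusted limma p under 0.05, 2 members were higher and 0 lower, against 4.50% and 4.59% of all genes. In 3 members both AT90ES arrays lay above both mock arrays, against 17.7% of all genes, and in 0 members both lay below, against 22.1%. All 3 were above background on every array. Among 7247 genes in the level range of the 6 members above background, the share higher in this way was 22.05%. The median difference of the members was 0.15, against -0.02 over all genes. That of the members depended on mock replicate 1, without which most members had negative differences, as given below. With 2 arrays per group the smallest p of an exact permutation test is 0.333, so that test could not pass the threshold.

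Myd88, the adaptor that joins receptors to IRAK kinases, had log2 levels of 6.59 and 6.89 in mock and 7.73 and 7.51 in AT90ES cells. The groups did not overlap, and the lowest AT90ES array stood above the highest mock array. The mean went from 6.74 ± 0.21 to 7.62 ± 0.15 (SD, n = 2), a difference of 0.88 ± 0.16 (SE) or 1.84-fold, with a 95% interval of 1.40 to 2.41-fold that is not adjusted for the number of genes. It did not pass over all genes (limma adjusted p = 0.183). In order of difference Myd88 was number 146 of 22180 genes, and the smallest difference that limma called, that of Tor3a, was 0.97 (a gene named for that reason after its value was seen).

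Ticam1, the adaptor of Tlr3, had log2 levels of 5.89 and 6.36 in mock and 6.22 and 6.33 in AT90ES cells. Both AT90ES values lay between the mock values, so the groups overlapped. The difference was 0.15 ± 0.18 (SE), with a 95% interval of -0.30 to 0.60 and a limma adjusted p = 0.855.

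Unc93b1, which carries the endosomal receptors out of the endoplasmic reticulum, had log2 levels of 6.12 and 6.43 in mock and 6.47 and 6.38 in AT90ES cells. AT90ES replicate 2 lay under mock replicate 2. The difference was 0.15 ± 0.15 (SE, limma adjusted p = 0.816), and its 95% interval ended at 1.43-fold.

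Among the endosomal receptors Tlr3 had the highest difference. Its log2 levels were 7.31 and 7.74 in mock and 8.23 and 8.26 in AT90ES cells. The AT90ES arrays agreed within 0.03 and stood above both mock arrays, which lay 0.43 apart. The mean went from 7.53 ± 0.30 to 8.25 ± 0.02 (SD, n = 2), a difference of 0.72 ± 0.17 (SE) or 1.65-fold with a 95% interval of 1.23 to 2.21-fold, and it did not pass over all genes (limma adjusted p = 0.33). In order of difference Tlr3 was number 228.

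Tlr9, the receptor for CpG DNA, had log2 levels of 5.31 and 5.43 in mock and 5.31 and 4.96 in AT90ES cells. AT90ES replicate 1 lay between the mock arrays and replicate 2 below both. The difference of -0.23 ± 0.16 (SE) was the lowest of the 10 members, with a limma adjusted p = 0.731 and a 95% interval of 0.651 to 1.12-fold.

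Tlr7, the receptor for single-stranded RNA, had log2 levels of 3.41 and 3.63 in mock and 3.38 and 3.64 in AT90ES cells. These values lay under background and the groups overlapped. The difference was -0.01 ± 0.15 (SE, limma adjusted p = 0.987). In RefSeq's gene order Tlr7 neighbours Tlr8, a related receptor, which had mean levels of 3.54 and 3.74 and lay under background on all arrays too.

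Among the surface receptors only Tlr4, the lipopolysaccharide receptor, lay above background on every array. Its log2 levels were 7.00 and 7.15 in mock and 7.38 and 7.26 in AT90ES cells. The AT90ES values were the higher pair and did not overlap the mock pair. The difference was 0.25 ± 0.13 (SE) or 1.19-fold, with a 95% interval of 0.958 to 1.48-fold and a limma adjusted p = 0.626.

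Tlr2, which pairs with Tlr1 or Tlr6 to bind lipoproteins, had log2 levels of 3.65 and 4.46 in mock and 3.77 and 4.76 in AT90ES cells. In both groups replicate 2 was the higher, by 0.81 and 0.98, the widest gaps between replicates among the members, and both gaps were larger than the difference of 0.21 ± 0.39 (SE, limma adjusted p = 0.92). The 95% interval of Tlr2 therefore ran from 0.589 to 2.27-fold.

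Tlr1 had log2 levels of 4.61 and 5.15 in mock and 5.22 and 4.60 in AT90ES cells. The high array was replicate 2 in mock and replicate 1 in AT90ES cells, and the difference of 0.03 ± 0.27 (SE) had a limma adjusted p = 0.984. Tlr6 had log2 levels of 3.30 and 3.58 in mock and 3.31 and 3.82 in AT90ES cells, with a difference of 0.13 ± 0.21 (SE, limma adjusted p = 0.901). Tlr1 and Tlr6 are close relatives that lie next to each other in the RefSeq gene order, and their levels are uncertain where probes hybridise to both.

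**Figure D2:**
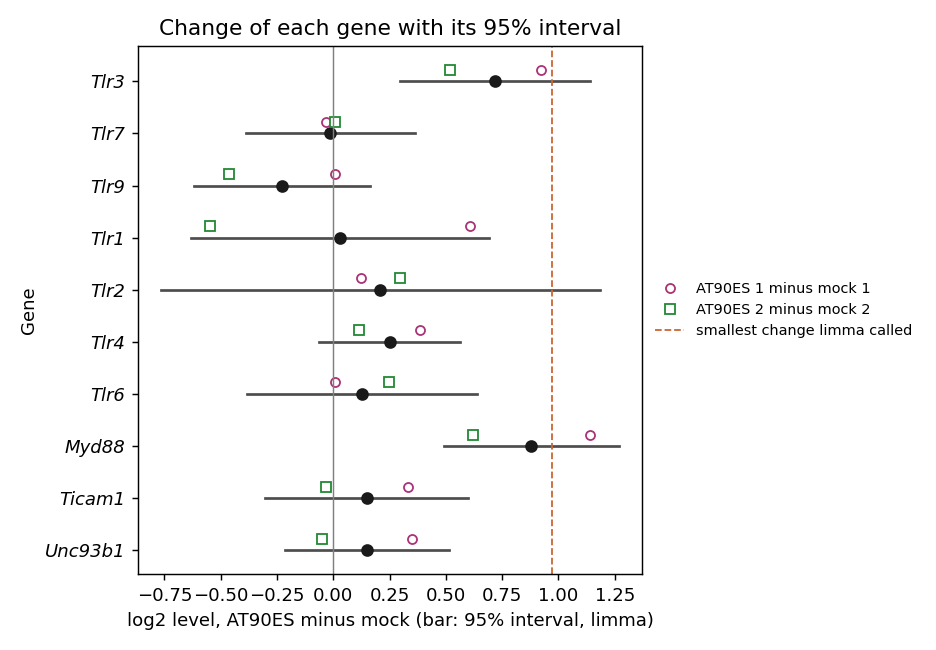
Difference of each gene (log2 level, AT90ES minus mock, filled point) with limma's 95% interval as a bar, and the differences between arrays of the same replicate number as open symbols above it, which show spread and no pairing. The intervals of Myd88 and Tlr3 lie above 0, and the dashed line at 0.97 marks the smallest difference called over all genes.

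The mock arrays differed from each other in these genes. All 10 members read lower on mock replicate 1 than on mock replicate 2, by 0.30 at the median, while on the AT90ES arrays 5 read lower on replicate 1. Among all genes 51.4% read lower on mock replicate 1, and 63.6% did so among the 7247 genes whose mean level lay in the range of the 6 members above background (5.25 to 7.89). Without mock replicate 1 the difference of Myd88 was 0.73 and that of Tlr3 0.50, and without mock replicate 2 they were 1.03 and 0.94. Ticam1 and Unc93b1 stood at -0.09 and -0.0038 without mock replicate 1. In that fit Tlr4 stood at 0.17, and Tlr1, Tlr2, Tlr6, Tlr7 and Tlr9 at -0.24, -0.20, -0.01, -0.12 and -0.29. The median over all genes was then -0.01. Without mock replicate 2 all members except Tlr9 (-0.17) had positive differences.

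Whether Myd88 and Tlr3 were called depended on how the spread between arrays was estimated. When the spread shared across genes was allowed to follow the level, limma called both higher, Myd88 with an adjusted p = 0.00288 and Tlr3 with an adjusted p = 0.0085, and it called 0 other members. That fit called 1.94% of all genes higher and 0.730% lower. Over the planned settings that kept all 4 arrays, the limma adjusted p ranged from 0.00288 to 0.49 for Myd88 and from 0.0085 to 0.612 for Tlr3. Each passed in 1 of them, the intensity trend. Over all 12 planned settings beside the main fit, the difference stayed between 0.73 and 1.03 for Myd88 and between 0.50 and 0.94 for Tlr3. Those 12 include the fits that left out 1 array.

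**Figure D3:**
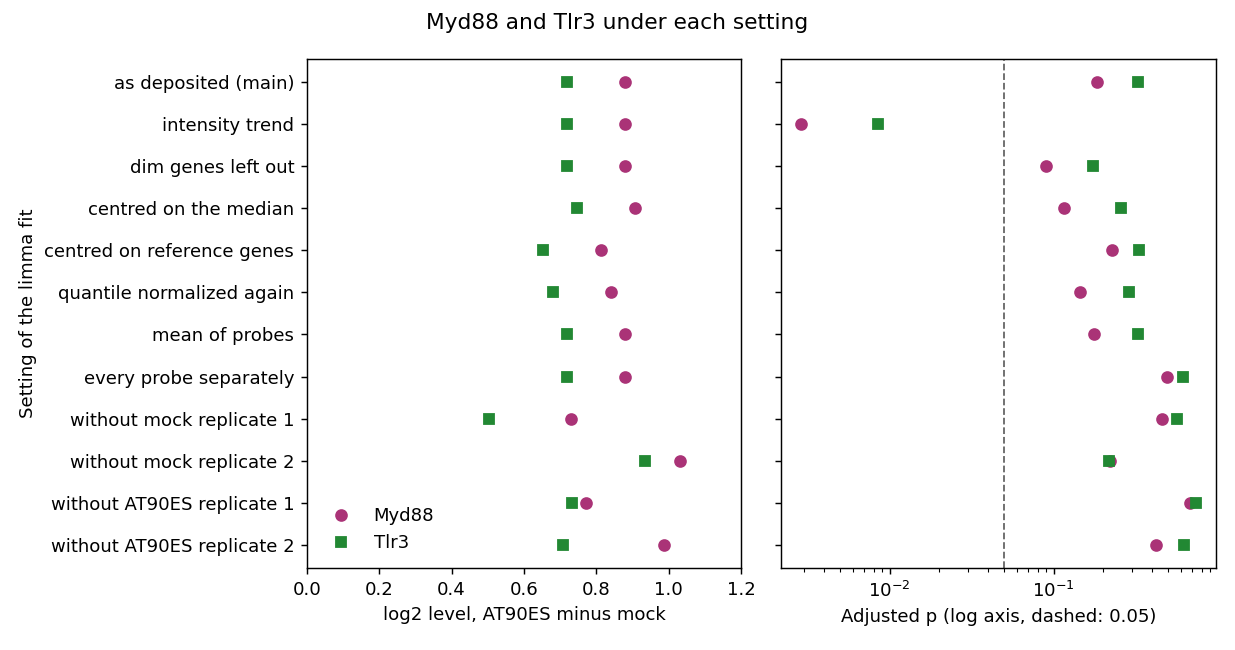
Difference (left, log2 level, AT90ES minus mock) and Benjamini-Hochberg adjusted p (right, log axis) of Myd88 and Tlr3 under each setting of the limma fit that uses no replicate block. The differences lie between 0.50 and 1.03, and the p-values pass the dashed line at 0.05 with the intensity trend, at 0.00288 and 0.0085.

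By a rule set for naming genes, the 3 genes nearest to Myd88 and to Tlr3 were taken by Euclidean distance of log2 levels over the 4 arrays. The distance holds both the brightness of each probe and the difference between the groups, so it is a description, and it fixes in part the differences of the genes it picks. Nearest to Myd88 were Resf1 (distance 0.32), Ddit3 (0.36), the stress-induced transcription factor CHOP, and Cpped1 (0.37). Nearest to Tlr3 were Rrp36 (0.22), Snx10 (0.24) and Rb1 (0.27), the retinoblastoma gene.

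The rest of the pathway was described by 6 lists with 75 measured genes. Of these limma called 6 higher and 0 lower, against 0.415% and 0% of all genes. Among 11 other receptors and co-receptors 0 were called, with a median difference of -0.06. On all 4 arrays 2 lay above background, against 52.8% of all genes. One was Ly96 (MD-2), the partner through which Tlr4 binds lipopolysaccharide, with means of 10.10 and 10.04 (difference -0.06, limma adjusted p = 0.923). The other was Tlr5, the flagellin receptor, with means of 5.67 and 5.50 (-0.18, limma adjusted p = 0.771). Cd14, the co-receptor that hands lipopolysaccharide to Tlr4, was named after its values were seen, lay above background on 1 mock and 2 AT90ES arrays, and had a difference of 0.14.

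Of 11 genes that fold, move or cleave the receptors, 0 were called, and 8 lay above background on all arrays, against 52.8% of all genes. Hsp90b1 (gp96), the chaperone that folds Toll-like receptors, had means of 11.90 and 11.87, and Tmed7, a cargo receptor of the secretory pathway, 10.52 and 10.57. Of 18 measured adaptors, kinases and ligases 0 were called, with a median of 0.07. Tax1bp1, an adaptor of the A20 ubiquitin-editing complex, had a difference of 0.16 (limma adjusted p = 0.735) and Tab2, a partner of the kinase TAK1, 0.12 (limma adjusted p = 0.815). Ticam2 (TRAM), the bridge between Tlr4 and Ticam1, was named after its values were seen and had the lowest difference in the list, -0.60, with means of 4.71 and 4.11 that lay under background on all arrays (limma adjusted p = 0.324). Of 6 measured receptors of the IL-1 family, a family that also signals through Myd88, 0 were called. Il1rap, a chain that some of them share, had a difference of -0.01 (limma adjusted p = 0.99) and was the only 1 of the 6 above background. Il18r1, a chain of the interleukin-18 receptor, had 0.04.

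The 6 calls came from genes that act downstream or as brakes. Among 11 negative regulators 2 rose, Usp18, which trims ISG15 from proteins and restrains interferon receptors, by 2.78 ± 0.16 (SE, limma adjusted p = 0.00354), and Nfkbia, which encodes the NF-kappaB inhibitor I-kappaB alpha, by 1.35 ± 0.13. Usp18 lay above background on 1 mock array, so the size of its rise is uncertain. Among 18 known output genes 4 rose: the chemokines Ccl5 and Cxcl10 by 6.32 and 5.11, and the NF-kappaB genes Nfkbie and Nfkb2 by 1.97 and 1.37. Nfkbia and Nfkb2 passed in 0 of 4 fits with an array removed (limma adjusted p from 0.0982 to 0.162 and from 0.0604 to 0.154), while the other 4 passed in all 4. The other 14 output genes did not pass, and the median over the list of 18 was 0.11. The genes named next were named after their values were seen. Highest of the 14 were Cxcl1 at 0.99 and Il6 at 0.74, both targets of NF-kappaB. Cxcl1 lay above background on 1 mock array and Il6 under it on all arrays, so the sizes are uncertain. Lowest were Ptgs2 at -0.29 and Ifnb1 at -0.25, both under background on all arrays. Cxcl2, Icam1 and Nfkbiz stood at 0.01, 0.07 and 0.07. The output genes are shared with other sensing pathways.

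**Figure D4:**
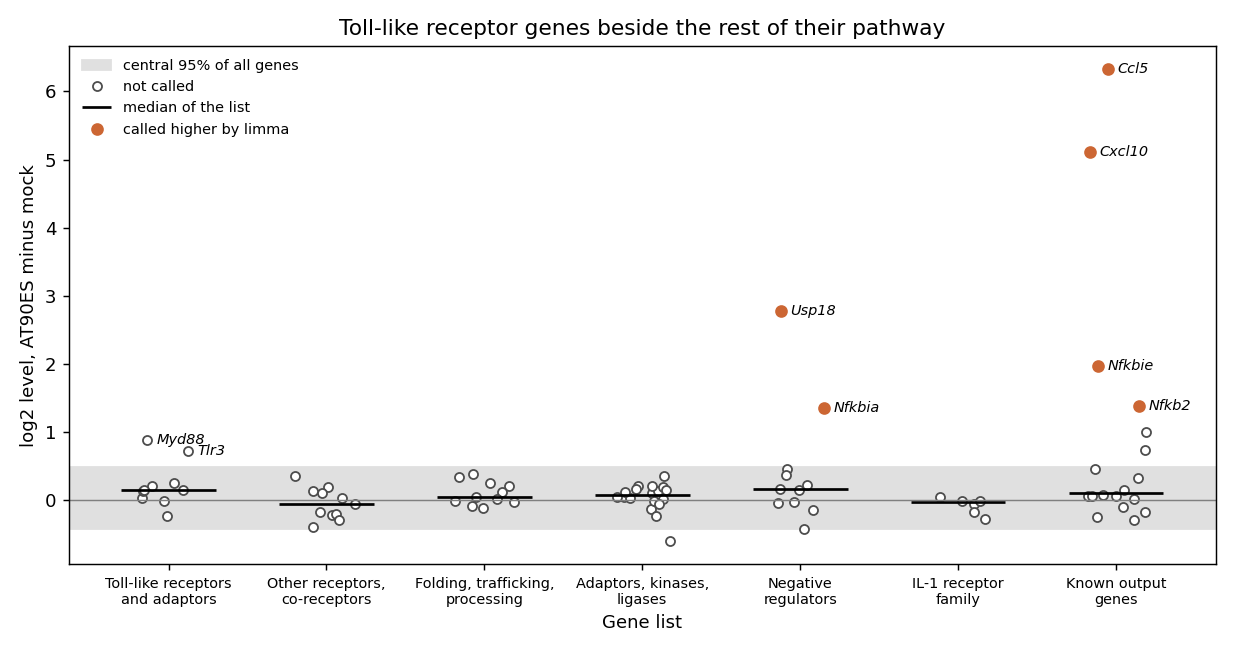
Difference of each gene (log2 level, AT90ES minus mock) in the 10 members and 6 pathway lists, filled where limma called the gene higher, with a line at each list's median and a grey band for the central 95% of all genes (-0.43 to 0.48). Myd88 and Tlr3 are the 2 members outside the band, and the 6 filled points are Usp18, Nfkbia, Ccl5, Cxcl10, Nfkbie and Nfkb2.

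Markers of melanocytes and of other cell types, some of which carry these receptors, were set beside the same background. All 8 melanocyte markers lay above background on all arrays. The mean over this list was 10.95 to 11.11 across the arrays, and single markers had mock means from 7.00 (Tyr) to 12.91 (Dct). Of 13 macrophage and monocyte markers 7 lay above background on both mock arrays, namely Csf1r, Cd68, Fcer1g, Lyz2, Cx3cr1, C1qa and C1qb. Ptprc, Itgam, Adgre1 and Tyrobp lay below it on all 4 arrays. The mean level of that list was 5.24 and 5.26 on the mock arrays and 4.95 to 5.07 on the AT90ES arrays, with 0 of 13 called. In 7 of the 13 both AT90ES arrays lay below both mock arrays (22.1% of all genes). At an unadjusted limma p under 0.05, 3 were lower (4.59% of all genes), C1qb at -0.80, Tyrobp at -0.53 and Mrc1 at -0.50. These 3 were named after their values were seen. Tyrobp lay under background on all 4 arrays, Mrc1 above it on 1 mock array alone, and C1qb above it on the mock arrays alone. The size of these differences is therefore uncertain. Of 6 plasmacytoid dendritic cell markers 1 lay above background on both mock arrays, of 5 measured B cell markers 1, and of 8 fibroblast and endothelial markers 4. On all 4 arrays 52.8% of all genes lay above background. In these lists 6 macrophage and monocyte, 1 plasmacytoid dendritic cell, 1 B cell and 3 fibroblast and endothelial markers did so. Whether the culture held cells other than the melanoma line was not tested, and neither was any part of such cells in the levels of the members. In RNA from a whole culture, fewer cells of a type and less RNA per cell cannot be told apart.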

How the data were processed

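Per the labels' protocols, 300 ng of total RNA went onto each of 2 mock and 2 AT90ES arrays. Values were deposited as log2 levels from RMA, a name given by the submitters' processing notes; software and settings are not given in the sources used here. RMA corrects background, brings arrays to a like distribution and summarises each probe set, so differences are relative to the other genes. Of 41345 probes, 23521 had 1 symbol in the platform's annotation and gave 22180 genes (brightest probe per gene). All 10 members matched RefSeq by gene ID. The groups were compared with limma 3.58.1 (R 4.3.3, lmFit and eBayes, no covariate, no filter), two-sided. Benjamini-Hochberg adjustment ran over all genes, with a threshold of 0.05. The steps were run on simulated data with independent normal noise at limma's own spread estimates. That checks the code and not whether the noise of these arrays has that form. Members, lists and motifs were chosen with earlier results of these data known. Named genes were the members, from each list up to 4 genes past the threshold or else the 2 with the highest mean, and the 3 nearest to each of 2 members. Irak4, Traf3, Ripk1, Chuk, Irf5 and Il1rl1 were not analysed here. The number of arrays limits the precision.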

Additional observations from a re-analysis of the deposited data

How the results depend on the processing

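When the spread followed the intensity, limma called 431 genes higher and 162 lower, 2 of them members, against 92, 0 and 0. With dim genes left out it called 142 higher and 3 lower, a setting in which Tlr2, Tlr6 and Tlr7 were not tested. With arrays centred on their median it called 127 higher and 1 lower, and with every probe tested separately 30 higher, a setting in which Nfkbia and Nfkb2 lost their calls (limma adjusted p = 0.172 and 0.139). Leaving out 1 array gave 32 to 47 genes called higher, with the lone array taken to vary like the arrays of the other group. Members called numbered 0 in each setting other than the intensity trend, and pathway genes called higher numbered 4 to 8 against 6. Members above background on both mock arrays numbered 5 with the 99th percentile of olfactory receptor genes and 6 with vomeronasal receptor genes. With the replicate number as a block 85 genes were called. No call changed among the 24 genes followed across settings, which are the members and the genes named from the lists by rule. The correlation of same-numbered deviations was -0.22. With the numbers crossed it was 0.22, which must be the same value with its sign reversed at 2 arrays per group. It does not decide whether arrays were paired, and the labels give only a number. The crossed pairing, added after the data were seen, called 59. A change of sign was not counted as a reversal where the gene passed neither before nor after. This held for 12 comparisons of members and 22 of all 284 of the 24 genes followed. The cause of these differences was not tested. The number of arrays and, for 3 members, a level under background limit what could be seen.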
